A study of Mus musculus with 8 samples.

Results

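The 7 genes described are those for the aldehyde oxidases Aox1 and Aox3, sulfite oxidase (Suox), and the makers of the molybdenum cofactor these enzymes need (Mocos, Mocs1, Mocs2 and Gphn). They were picked by gene symbol as a pathway, with earlier results of these data known, and all 7 were found among the 11784 genes of the liver table. Livers came from male C57BL/6J mice, with no transgene or deletion named for either group. The mice were switched at 9 weeks of age to an amino acid defined diet for 4 months. They were fasted overnight for about 16 hours before collection. The 4 Control mice ate diet TD.140711, and the 4 Low AA mice ate diet TD.140712, in which carbohydrate takes the place of most of the amino acid calories while fat is nearly equal. Poly(A) RNA was sequenced, and values are scaled read counts, which are read counts already brought to a common scale and rounded by the authors. They are not raw counts.

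Aldehyde oxidases are cytosolic enzymes that oxidize aldehydes, such as retinaldehyde and pyridoxal, and nitrogen-containing rings, such as those of many drugs and of N-methylnicotinamide. They pass electrons from a molybdenum centre through iron-sulfur clusters and FAD to oxygen. The molybdenum is held by a pterin, the molybdenum cofactor. MOCS1 starts its synthesis from GTP in mitochondria, MOCS2 adds the sulfurs that bind the metal, and gephyrin (Gphn) inserts the molybdenum. MOCOS then adds a terminal sulfur that aldehyde oxidases and xanthine dehydrogenase require and that sulfite oxidase does not. Sulfite oxidase, in the space between the mitochondrial membranes, oxidizes the sulfite that comes from cysteine breakdown to sulfate. The liver is a main site of both kinds of enzyme.

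The Aox1 and Aox3 genes lie side by side on the plus strand of chromosome 1 in GRCm38, the build that the submitters' processing notes name as mm10. Aox1 (ENSMUSG00000063558.4) runs from 58029931 to 58106413 and Aox3 (ENSMUSG00000064294.12) from 58113130 to 58200698, each with 35 exons in its principal transcript. The 250 bases before each RefSeq start are shown because these neighbours had the most negative fold changes of the 7 genes, and capitals mark matches to the motifs searched. They cover chr1:58029719-58029968 for Aox1 and chr1:58112886-58113135 for Aox3. The gene positions above are from GENCODE, and each stretch runs past the start given there. Its last bases thus lie inside the annotated gene.
Aox1: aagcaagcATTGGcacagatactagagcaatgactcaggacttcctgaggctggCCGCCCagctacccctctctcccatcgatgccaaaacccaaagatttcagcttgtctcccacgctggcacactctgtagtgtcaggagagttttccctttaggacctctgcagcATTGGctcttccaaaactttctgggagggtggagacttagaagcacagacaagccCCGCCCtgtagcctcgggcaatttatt
Aox3: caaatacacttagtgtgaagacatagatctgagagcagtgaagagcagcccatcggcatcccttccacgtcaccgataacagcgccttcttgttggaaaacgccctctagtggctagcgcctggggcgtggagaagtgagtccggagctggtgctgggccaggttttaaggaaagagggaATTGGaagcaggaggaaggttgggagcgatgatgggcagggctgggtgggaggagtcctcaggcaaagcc

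Both promoters hold the CCAAT box (CCAAT, or ATTGG read on the other strand), which 37.4% of 32851 RefSeq promoter windows in GRCm38.p6 hold. Aox1 holds it at -242 and -82 from the start and Aox3 at -70. The GC box (GGGCGG or its reverse, CCGCCC), held by 35.7% of promoters, is in the Aox1 window at -196 and -27 and has no match in that of Aox3. Windows ran from 250 bases before to 50 bases after the start, and both strands were searched. No match to the NRF2 element core (TGACNNNGC, in 12.4% of promoters), the STAT site (TTCNNNGAA, in 8.30%), the ATF4 composite element (TGATGNAA, in 3.97%), the nuclear receptor half-site (AGGTCA, in 16.3%), the HNF1 half-site (GTTAAT, in 7.10%) or the TATA box (TATAAA, in 13.6%) was found in either window. The pair aligned at 48.6% identity over 331 columns, gaps included. No other pair was aligned, so whether this is more than unrelated promoters share was not tested. Of the other members with a promoter in the table, Suox and Mocs1 also hold a CCAAT box, at -85 and -38. Suox, Mocs1, Mocs2 and Gphn hold a GC box, and Mocs2 holds the NRF2 core at -150. These are matches of letters only, and they say nothing of which factors act there.

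Aox1 was lower in every Low AA mouse than in any Control mouse. Scaled read counts were 824, 1029, 704 and 753 in Low AA mice H1126, H828, H817 and H1315, and 1476, 1956, 1741 and 1738 in Control mice F129, F2212, F7111 and F2110. The highest Low AA mouse, H828, thus lay well under the lowest Control mouse, F129. The Low AA mean was 827.5 ± 143, which was 52.1% below the Control mean of 1728 ± 196 (SD, n = 4 each). The log2 difference was -1.07 with a standard error of 0.14 and a 95% interval from -1.37 to -0.77, and it passed the threshold of 0.05 (limma, Benjamini-Hochberg adjusted over all genes, adjusted p = 0.0106). It ranked 13 of 11784 genes by p. Of all genes, 0.399% passed in either direction and 0.297% passed as lower. With any single mouse removed Aox1 still passed, and the weakest of these 8 fits, without H817, gave -0.997 (limma adjusted p = 0.0456). Aox1 was the only one of the 7 members that passed when all mice were used.

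Aox3, with the larger transcript pool of the pair in these livers, was on average 47.5% lower on the Low AA diet, but the groups overlapped and the difference did not pass. Values were 3821, 3376, 2531 and 3417 in Low AA mice H1126, H828, H817 and H1315, and 5316, 6261, 9725 and 3724 in Control mice F129, F2212, F7111 and F2110. The Low AA mice were close together, whereas the Control mice ran from F2110, which lay under the highest Low AA mouse, to F7111, which stood above all the rest. The coefficient of variation was 40.6% in Control and 16.5% in Low AA mice. Means were 3286 ± 542 and 6256.5 ± 2538 (SD, n = 4 each), with a log2 difference of -0.86 (standard error 0.25, 95% interval -1.42 to -0.30, limma adjusted p = 0.195). Without F7111 the log2 difference was -0.62 and without F2110 it was -1.08, and neither passed (limma adjusted p = 0.222 and 0.105).

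The fall in Aox1 was not shown to differ in size from the difference in Aox3. The log2 of Aox1 over Aox3 averaged -1.99 ± 0.25 in Low AA and -1.78 ± 0.57 in Control mice (SD, n = 4 each), a difference of -0.21 (exact permutation test over 70 relabellings, two-sided, p = 0.571, where the smallest possible is 0.0286). Control mice lay at -1.85 in F129, -1.68 in F2212, -2.48 in F7111 and -1.10 in F2110. Low AA mice lay at -2.21 in H1126, -1.71 in H828, -1.84 in H817 and -2.18 in H1315, all inside the Control range. Leaving out F2110 brought the difference to 0.0148 and leaving out F7111 to -0.446 (two-sided exact permutation test, p = 0.971 and 0.143). No stretch of 100 bases, the read length used, was shared by the principal transcript of any of the 7 members with any transcript of another gene in GENCODE M21. Transcripts were compared in the sense direction only. Exact reads from these transcripts, kept to that direction, would thus match a single gene. A gene on the opposite strand overlaps each of Aox3, Mocos and Mocs1, and whether the counting used strand is not given in the sources used here.

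**Figure D1:**
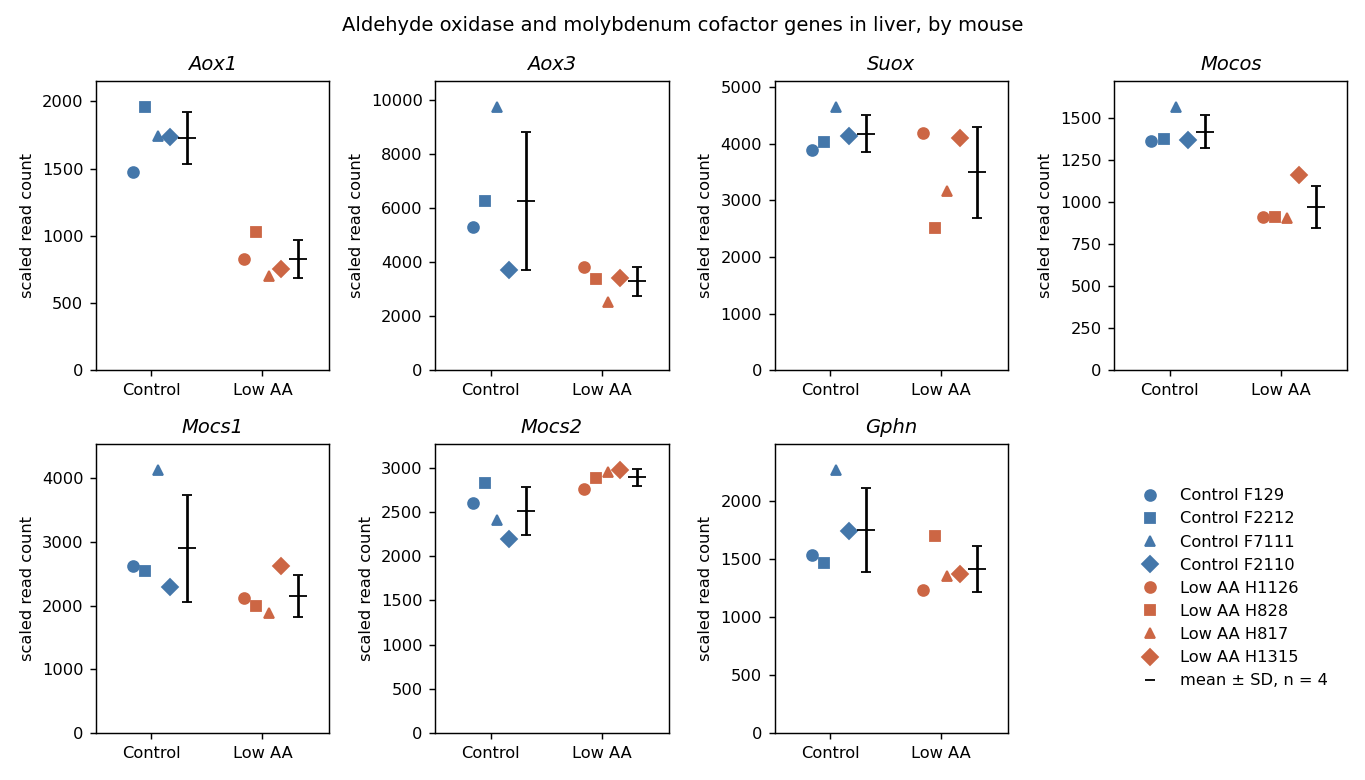
Scaled read count (y axis, from 0) of each of the 7 genes in each liver, with 1 symbol per mouse, Control in blue and Low AA in orange, and black bars for mean ± SD (n = 4). Aox1 and Mocos did not overlap between diets, and Control mouse F7111 was the highest Control mouse in 5 of the 7 genes.

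Mocos, the sulfurase that finishes the cofactor for aldehyde oxidases and xanthine dehydrogenase, was also lower in every Low AA mouse than in any Control mouse, without passing the adjusted threshold. Values were 913, 913, 904 and 1161 in Low AA mice H1126, H828, H817 and H1315, and 1364, 1376, 1566 and 1374 in Control mice F129, F2212, F7111 and F2110. H1315 stood above 3 nearly equal Low AA mice, and F7111 above 3 nearly equal Control mice. Means were 973 ± 126 and 1420 ± 97.5 (SD, n = 4 each), 31.5% lower, with a log2 difference of -0.55 (standard error 0.11, 95% interval -0.79 to -0.31, limma adjusted p = 0.0754). By unadjusted p it ranked 74 of all genes. Without H1315 it passed (log2 difference -0.64, limma adjusted p = 0.0397), and it did not pass when any of the other 7 mice was left out. Of the 7 members, 2 (Aox1 and Mocos) did not overlap between the diets, against 6.81% of all genes in either direction and 3.55% in the direction of lower values.

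The genes of the earlier steps of cofactor synthesis went both ways, and none passed. Mocs1, for the first step, lies on chromosome 17 from 49428362 to 49455435. It had 2118, 1987, 1879 and 2614 in Low AA mice H1126, H828, H817 and H1315, and 2614, 2550, 4128 and 2292 in Control mice F129, F2212, F7111 and F2110. The highest Low AA value equalled that of F129, and F7111 stood far above the rest. Its log2 difference was -0.40 (standard error 0.18, 95% interval -0.80 to -0.0003, limma adjusted p = 0.422), and without F7111 it was -0.22.

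Mocs2, whose transcript encodes both subunits of molybdopterin synthase in overlapping reading frames that gene counts cannot tell apart, lies on chromosome 13 from 114818236 to 114832275 and was the only member higher on the Low AA diet on average. Values were 2763, 2887, 2952 and 2978 in Low AA mice H1126, H828, H817 and H1315, and 2610, 2833, 2408 and 2196 in Control mice F129, F2212, F7111 and F2110. Only F2212 among the Control mice reached into the Low AA range. Means were 2895 ± 96.0 and 2512 ± 273 (SD, n = 4 each), with a log2 difference of 0.21 (standard error 0.10, 95% interval -0.01 to 0.43, limma adjusted p = 0.448).

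Gphn, which is also the scaffold for inhibitory receptors at synapses, lies on chromosome 12 from 78226379 to 78684772 and had 1229, 1697, 1354 and 1373 in Low AA mice H1126, H828, H817 and H1315, and 1531, 1468, 2266 and 1738 in Control mice F129, F2212, F7111 and F2110. H828 lay among the Control mice, and F7111 was again the highest. The log2 difference was -0.30 (standard error 0.15, 95% interval -0.64 to 0.04, limma adjusted p = 0.499), and without F7111 it was -0.17. In the annotation Gphn is the member with the most overlapping genes, 3 on its own strand and 3 on the other.

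Suox lies on chromosome 10 from 128669894 to 128674073. It had 4198, 2515, 3175 and 4095 in Low AA mice H1126, H828, H817 and H1315, and 3888, 4036, 4645 and 4136 in Control mice F129, F2212, F7111 and F2110. Low AA mice H1126 and H1315 were at Control levels, whereas H828 and H817 lay under all Control mice. Means were 3496 ± 799 and 4176 ± 329 (SD, n = 4 each), with a log2 difference of -0.28 (standard error 0.16, 95% interval -0.64 to 0.07, limma adjusted p = 0.539). The interval includes 0 and also a sizeable fall, so these 8 mice do not show that Suox stayed level. Without H828 the log2 difference was -0.14.

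**Figure D2:**
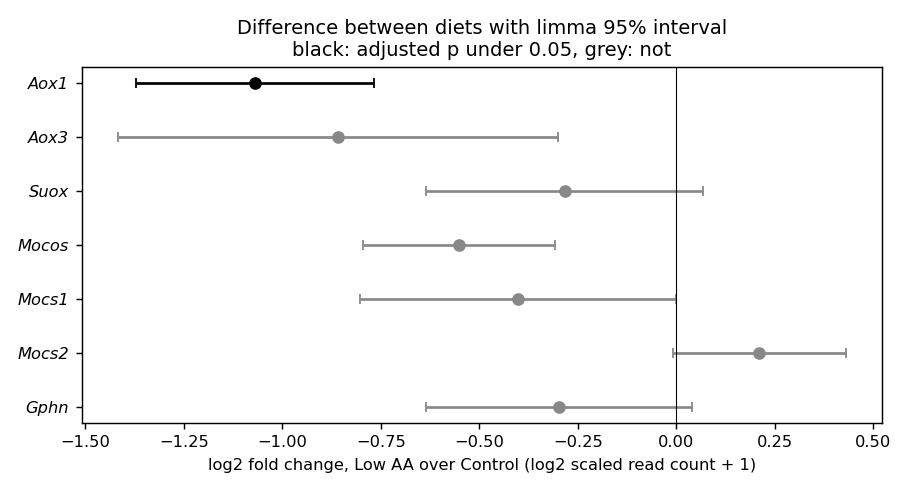
Log2 difference between diets, Low AA over Control, on the scale of log2(scaled read count + 1), for each of the 7 genes, with bars for the limma 95% interval. Aox1, in black, is the gene that passed at an adjusted p under 0.05, and the intervals of Suox, Mocs2 and Gphn cross 0.

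As a group, 6 of the 7 members had a negative log2 difference, with a median of -0.40, and 4 had an unadjusted p under 0.05, all of them lower. Over all 11784 genes the median was 0.00, 49.5% were negative, 11.8% had an unadjusted p under 0.05, and 6.7% had one as lower. The members were not drawn at random, so these shares describe them and test nothing.

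F7111 was the highest Control mouse for Aox3, Suox, Mocos, Mocs1 and Gphn. In log2 units its median deviation from the Control mean over the 7 members was 0.16, and those of the remaining Control mice lay from -0.11 to -0.04. For Aox1 it was at 0.02, close to the Control mean. Mouse H817 was the lowest Low AA mouse for 4 members (Aox1, Aox3, Mocos and Mocs1), with a median deviation of -0.11 from its own diet's mean, and H1315, at 0.07, was the highest for Mocos, Mocs1 and Mocs2. Without F7111 all 7 log2 differences kept their sign, and those of Aox1 and Mocos were -1.06 and -0.50 (limma adjusted p = 0.0273 and 0.120).

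**Figure D3:**
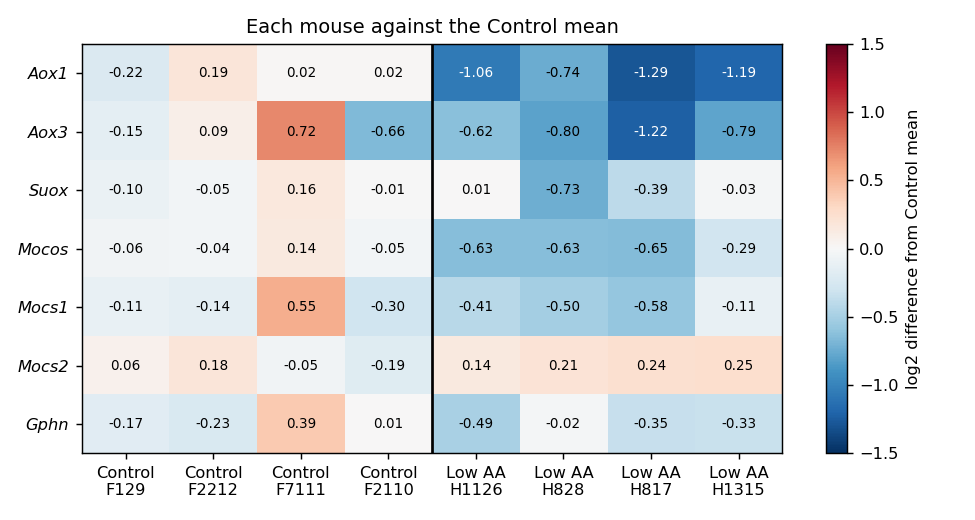
Difference of each mouse from the Control mean in log2(scaled read count + 1), by gene (rows) and mouse (columns), with Control on the left, blue for lower and red for higher. The 4 Low AA mice run from -1.29 to -0.74 in Aox1 and from -0.65 to -0.29 in Mocos, and the column of Control mouse F7111 is red for Aox3, Mocs1 and Gphn.

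Levels between genes were compared per kb of the principal transcript, as scaled read counts per kb. In Control livers the order of these levels was Suox at 1673 ± 132, Aox3 at 1358 ± 551, Mocs2 at 1354 ± 147, Mocs1 at 1119 ± 322, Gphn at 531 ± 110, Mocos at 489 ± 33.6 and Aox1 at 391 ± 44.4 (SD, n = 4 each). Neighbours among the first 4 overlapped, as did Gphn and Mocos. Mocs1 lay above Gphn in 4 of 4 mice without overlap, and Mocos lay above Aox1 in 4 of 4 without overlap. In Low AA livers the order was Mocs2 at 1561 ± 51.7, Suox at 1400 ± 320, Mocs1 at 831 ± 125, Aox3 at 713 ± 118, Gphn at 428 ± 60.5, Mocos at 335 ± 43.3 and Aox1 at 187 ± 32.3 (SD, n = 4 each). Among neighbours in that order, Aox3 and Gphn, and Mocos and Aox1, did not overlap. Aox1 was thus the lowest of the 7 per kb on each diet. Aox3 was above Aox1 per kb by a factor of 2.06 to 5.36 in Control mice and 3.15 to 4.45 in Low AA mice.

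Around these members stand the other molybdenum enzymes, the suppliers of their sulfur, iron-sulfur clusters and FAD, and the enzymes that make or share their substrates. Of 82 such genes listed, 0 passed in limma, with 12 at an unadjusted p under 0.05, 7 lower and 5 higher, and a median log2 difference of 0.00. In 7 of them the diets did not overlap. Over all genes 0.399% passed, 11.8% had an unadjusted p under 0.05, 6.7% had one as lower, and 6.81% did not overlap. The counts for single lists and markers below stand against the same shares. Among the 5 molybdenum enzymes and mARC partners, Xdh, for xanthine dehydrogenase, the other enzyme served by MOCOS, had the largest fall. Its values were 1948, 1565, 1771 and 1916 in Low AA mice H1126, H828, H817 and H1315, and 1845, 2259, 3955 and 2351 in Control mice F129, F2212, F7111 and F2110. F7111 stood far above the others here too, as for Aox3 and Mocs1, and F129 lay within the Low AA range. The log2 difference was -0.48 (standard error 0.20, limma adjusted p = 0.392), and between -0.62 and -0.25 as single mice were left out. Mosc1, which encodes the amidoxime reducing component mARC1, had the largest positive difference, 0.07 (limma adjusted p = 0.873), and the mARC genes and their cytochrome b5 partners lay between -0.05 and 0.07.

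In the 6 genes of cofactor sulfur supply and transport, differences ran from -0.13 in Mpst, a sulfurtransferase, to 0.15 in Urm1, a ubiquitin-like sulfur carrier that MOCS3 also serves. None had an unadjusted p under 0.05. Mocs3, which activates the small subunit of molybdopterin synthase, was listed at 69 to 104 in all 8 mice, with a log2 difference of 0.07 (limma adjusted p = 0.922).

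Of 24 iron-sulfur cluster genes, 8 were negative and 16 positive, with a median of 0.06 and 0 called in limma, and 2 had an unadjusted p under 0.05. Fdxr, the reductase that feeds electrons to mitochondrial ferredoxin, was at 310 to 443 in Low AA and 467 to 608 in Control mice, without overlap, a log2 difference of -0.57 (standard error 0.13, limma adjusted p = 0.113). The largest positive difference was that of Ciapin1, an electron carrier of cytosolic cluster assembly, at 0.36 (limma adjusted p = 0.512). Among 4 genes of riboflavin and FAD supply, 3 were positive. The riboflavin transporter Slc52a2 was at 390 to 499 in Low AA and 312 to 357 in Control mice, without overlap (log2 difference 0.42, limma adjusted p = 0.157). Slc25a32, a mitochondrial carrier for folate and FAD, had the largest positive difference of these 4, 0.53 (limma adjusted p = 0.302), and FAD synthase, Flad1, the only negative one, -0.11 (limma adjusted p = 0.772).

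Of 13 genes of sulfite formation and sulfate handling, 8 were negative and 5 positive, with a median of -0.10 and 0 called. Csad, which diverts cysteine sulfinate to taurine and away from sulfite, had the largest fall in value, -0.40 (limma adjusted p = 0.578). Cycs, for cytochrome c, which takes the electrons of sulfite oxidase, was at 7904 to 8660 in Low AA and 5011 to 7752 in Control mice, without overlap (log2 difference 0.41, limma adjusted p = 0.273).

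Aldehydes and retinoids also have other enzymes. Of 15 aldehyde dehydrogenases 0 were called, and 2 had an unadjusted p under 0.05, both lower. Aldh7a1, which acts in lysine breakdown and on lipid aldehydes, was at 6631 to 8539 in Low AA and 9343 to 12695 in Control mice, without overlap. Its log2 difference of -0.54 (standard error 0.12) came closest to the threshold of the 82 genes (limma adjusted p = 0.0977). The largest fall in value was that of Aldh1b1, a mitochondrial aldehyde dehydrogenase, at -0.62 (limma adjusted p = 0.323), and the largest positive difference that of Aldh18a1, for proline synthesis, at 0.22 (limma adjusted p = 0.783). Of 12 alcohol and retinol dehydrogenases 6 were negative and 6 positive, from -0.45 in Rdh5 to 0.37 in Adh7 (limma adjusted p = 0.264 and 0.510).

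The 6 makers of aldehyde oxidase substrates held the most negative value of all the lists. Nnmt, which makes N-methylnicotinamide, was at 1266, 940, 2707 and 4563 in Low AA mice H1126, H828, H817 and H1315, and at 3574, 7547, 4352 and 6969 in Control mice F129, F2212, F7111 and F2110. H1315 alone lay in the Control range. The log2 difference was -1.45 with a standard error of 0.45, larger than that of Aox1, and it did not pass (limma adjusted p = 0.220). Bcmo1, which cleaves beta-carotene to retinaldehyde, had the largest positive difference of the 6, 0.06 (limma adjusted p = 0.943).

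**Figure D4:**
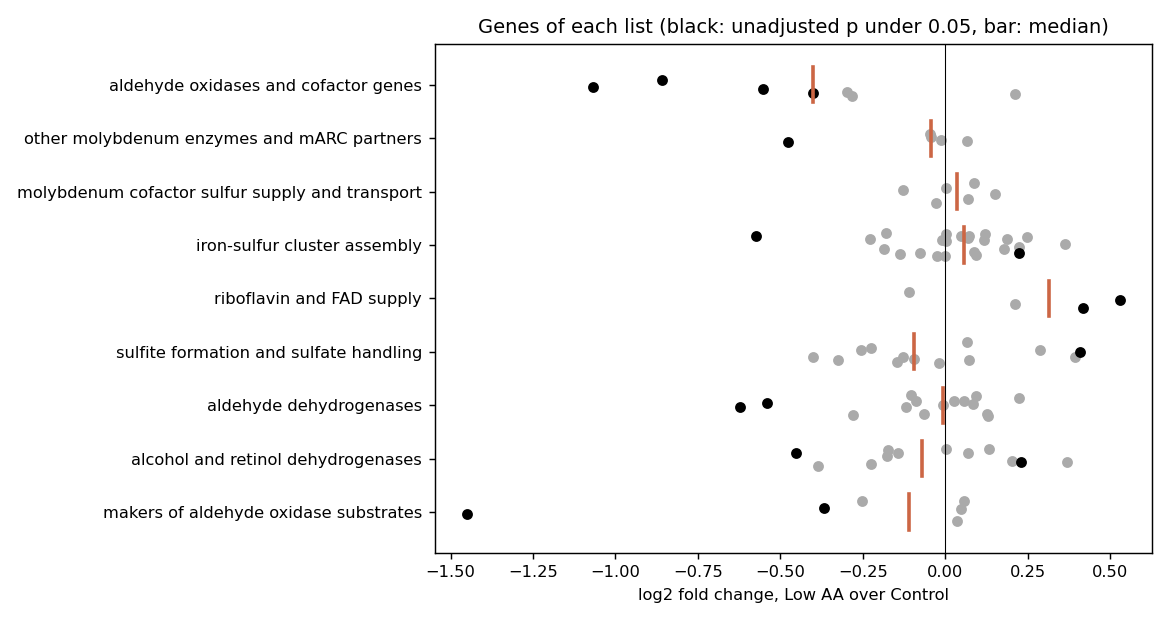
Log2 difference between diets (x axis, Low AA over Control) of every gene in each list (rows), with black points for an unadjusted p under 0.05 and an orange bar at the median of each list. The 7 aldehyde oxidase and cofactor genes have a median of -0.40, and the 82 other genes of the lists have one of 0.00.

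The listed neighbours of Aox1 and Aox3 on chromosome 1 lay nearer to 0 than either. Within 500 kb of the span from Aox1 to Aox3, 9 other genes were listed, with log2 differences from -0.29 to 0.19, 5 negative and 4 positive, 0 called in limma and 0 at an unadjusted p under 0.05. Kctd18, the nearest listed gene before Aox1, had 0.08, and Bzw1, a regulator of translation initiation and the first listed gene after Aox3, had 0.19 (limma adjusted p = 0.911 and 0.523). The others were Clk1 at -0.12, Ppil3 at 0.09, Nif3l1 at -0.07, Orc2 at -0.11, Fam126b at 0.06, Ndufb3 at -0.05, and the pseudogene Gm20257 at -0.29. The further aldehyde oxidase genes of this cluster, Aox4 and Aox2, lie between Aox3 and Bzw1. They were not listed under these symbols, so they have no values here.

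**Figure D5:**
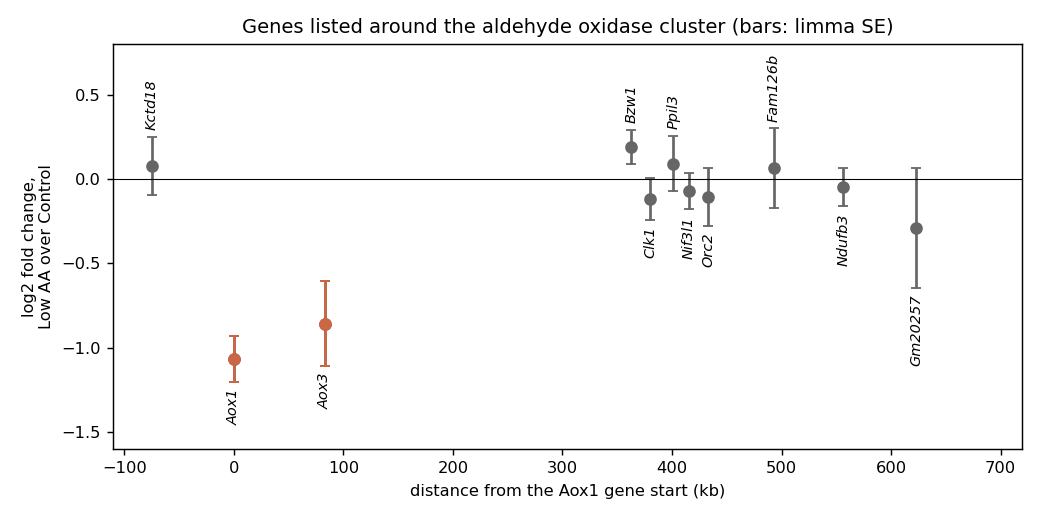
Log2 difference between diets (y axis, Low AA over Control, bars for the limma standard error) against the distance of each gene's left-hand end from the start of Aox1 (x axis, kb) for the 11 genes listed around the cluster. Aox1 and Aox3, in orange, lie at -1.07 and -0.86, and the 9 others between -0.29 and 0.19.

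Genes were also ranked by how closely their values followed each aldehyde oxidase over the 8 mice, by the root mean square difference of centred log2 values, in which the diet difference is included. Nearest to Aox1 were Plcxd1 at 0.145, Lrit1 at 0.169 and Fam65b at 0.217, with log2 differences between diets of -0.97, -0.82 and -0.92, and of these Lrit1 passed (limma adjusted p = 0.0308). Nearest to Aox3 were Gm4956 at 0.226, the beta-adrenergic receptor gene Adrb3 at 0.231 and the cytochrome P450 gene Cyp1a2 at 0.238, none of which passed (limma adjusted p = 0.178, 0.0793 and 0.245). Except for Lrit1 and Cyp1a2 these genes were listed at low levels, with group means from 18.8 to 111. Aox3 itself was number 243 in likeness to Aox1, at 0.394. Among the members, Mocos came nearest to Aox1, as number 96, and Mocs1 nearest to Aox3, as number 21.

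Values summed to between 27876664 and 30799385 per liver after the authors' scaling, with medians over genes of 433 to 449, so the true depth is not known. All 8 hepatocyte markers were listed, with a summed value of 2348271 to 2563513 in Low AA and 2087535 to 2424033 in Control livers. In these bulk samples, fewer cells of a type and less RNA per cell cannot be told apart. The 4 cholangiocyte markers listed of 5 summed to 826 to 1316 in Low AA and 1124 to 2265 in Control livers. None was called in limma, and 2 had an unadjusted p under 0.05. Most of each sum was Spp1, which reached 2075 in Control mouse F129. Log2 differences were -1.05 in Sox9, -0.87 in Krt19, -0.37 in Spp1 and -0.20 in Epcam (limma adjusted p = 0.283, 0.340, 0.630 and 0.792). The 3 blood markers listed of 5 summed to 4594 to 6584 in Low AA and 4390 to 13960 in Control livers, with a median log2 difference of -0.49, 0 called and 2 at an unadjusted p under 0.05. Markers of every cell type were matched by symbol only, so a gene listed under another symbol was missed. The beta-globin gene Hbb-b1 was listed but is outside this sum (log2 difference -0.96, limma adjusted p = 0.417). The 6 stellate markers summed to 7716 to 9666 and 7509 to 9777, with 0 called and 1, Col1a1, at an unadjusted p under 0.05 (log2 difference -1.07, limma adjusted p = 0.148). The part of these cell types in the results was not tested. The 5 macrophage and 5 endothelial markers listed overlapped between diets in their sums, with 0 at an unadjusted p under 0.05, and 0 of 4 adipocyte markers were listed. Control mouse F2212 stood apart in Cela1, the pancreas marker listed, at 36587 against at most 288 elsewhere, and was highest in the sum of the blood markers. It was also the highest mouse for Aox1, whose log2 difference without it was -1.01 (limma adjusted p = 0.0201).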

How the data were processed

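Total liver RNA went into stranded poly(A) libraries read as single 100-base reads. The submitters' processing notes name STAR 2.5.0a, RSEM 1.2.6 and edgeR 3.10.5 with build mm10, without their roles. The authors deposited a signal for each gene and mouse, a scaled and rounded read count whose scaling is not given in the sources used here, with their own signed fold change (a score) and FDR (a q-value), which were not used. Since count models need raw counts, log2(value + 1) was fitted with limma 3.58.1 in R 4.3.3, Low AA against Control, with a mean-variance trend, all 8 mice and Benjamini-Hochberg adjustment over all 11784 genes, at an adjusted p under 0.05. A filter at a value of 1 in at least 4 mice removed 0 genes. On this scale fold changes of low genes are understated. The script was tested on simulated data. Nothing in the labels pairs mice or names litters or cages, so each mouse was taken as an independent unit. The limma p-values set the diet difference against the variation between mice, which limma moderates using all genes. The paper states that mice were group housed. Without cage labels, an effect of a shared cage cannot be told apart from that of diet.

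The members and lists were chosen with earlier results of these data known. Named genes were the members, the largest rise and fall and any called gene of each list, the listed genes within 500 kb of Aox1 to Aox3, and the 3 genes nearest to each aldehyde oxidase. Aldh7a1, Slc52a2 and Mocs3, outside this rule, were named after their values were seen. Hbb-b1 was outside this rule as well. Col1a1, Cela1 and the cholangiocyte markers were named from the cell type marker lists. Positions and lengths are from GENCODE M21 (GRCm38), and promoters, matched for 6 of 7 members, are from RefSeq in GRCm38.p6. Alternatives were pseudocounts of 0.1 and 5, no filter, the 8000 highest genes, equal column totals, no trend, robust moderation, and each mouse left out. Alignment used Biopython 1.88 and figures matplotlib 3.10.9.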

Additional observations from a re-analysis of the deposited data

Results flagged for a closer look

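The 16 groups of 4 mice examined were the 7 genes and the ratio of Aox1 to Aox3 on each diet. Of these, 2 held a mouse far from the other 3 on the log2 scale. For a single group chance gives about 1 in 20. The groups share mice and the ratio reuses Aox1 and Aox3, so whether 2 of 16 exceeds chance was not tested. Both were in Mocos. Low AA mouse H1315, at 1161 scaled read counts against 904 to 913 in the other 3, had a gap of 0.96 of the group's range. Control mouse F7111, at 1566 against 1364 to 1376, had a gap of 0.937. In each group the other 3 mice were nearly equal, and both mice lay above their group. The log2 difference of Mocos was -0.64 without H1315 and -0.50 without F7111 (limma adjusted p = 0.0397 and 0.120), against -0.55 with all mice.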

How the results depend on the processing

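Of 105 refits of single members, 15 for each of 7 genes, 104 kept both the direction and the side of the threshold, and 1, Mocos without Low AA mouse H1315, passed where it had not. The setting without a filter only repeats the main fit, since the filter removed 0 genes. The settings of the 8000 highest genes, no trend and robust moderation cannot move a log2 difference. In these only the adjusted p could change. Over the 7 other settings the limma adjusted p ran from 0.00835 to 0.0253 for Aox1, from 0.053 to 0.115 for Mocos and from 0.192 to 0.247 for Aox3. Leaving out a mouse gave 1 to 2 members called lower and 0 called higher, and 0 of the 82 other genes of the lists were called in any setting. The difference in log2 Aox1 over Aox3 ran from -0.446 without Control mouse F7111 to 0.0148 without F2110, its only change of sign. Over all genes, 47 passed with all mice, 19 among the 8000 highest genes and 30 without the trend. Leaving out a mouse gave 16 to 77. For Low AA mice these were 21 without H1126, 19 without H828, 16 without H817 and 39 without H1315. For Control mice they were 29 without F129, 77 without F2212, 39 without F7111 and 35 without F2110. The causes were not tested. No paired analysis was possible because no label ties a Control mouse to a Low AA mouse. The true read depth is unknown, so no counting interval is given.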
